A study of Mus musculus with 9 samples.

Results

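The genes described here are Myc, its relative Mycl and 40 genes whose products build ribosomes in the nucleolus, 42 genes in all. They were chosen by name, and each was represented by the probe set that carried its symbol alone. Of the 42 genes, 39 had such a probe set, out of 22180 genes represented on the array. Fbl, Tsr1 and Mrto4 were found only on probe sets that also carry other genes, and no value is given for them. All 39 passed the filter on low signal, which left 17478 genes for testing.

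RNA of 9 female mice of the FVB strain was hybridised to Affymetrix Mouse Gene 2.0 ST arrays, 1 array per mouse. Metastatic mammary tumours and non-metastatic mammary tumours (3 mice each) came from Wnt1+/- mice of the MMTV-Wnt1 line, in which the mouse mammary tumour virus promoter, active chiefly in mammary epithelium, drives the secreted ligand Wnt1. Normal mammary glands (3 mice) came from littermates labelled wild-type for Wnt1. All mice, the littermates included, drank 6% sucrose with 200 ug/ml doxycycline from 6 weeks of age. Tumours were collected at a size of 20 mm, at 281 to 300 days of age in the metastatic group and 222 to 354 days in the non-metastatic group, and the normal glands at 533 to 556 days. Age and tumour state therefore cannot be told apart in any comparison with normal gland. Values are in log2 units, so that a difference of 1 is a doubling of signal.

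Myc is a transcription factor that pairs with Max and binds the E-box motif CACGTG. Its best known output is growth: it raises transcription of ribosomal RNA genes by RNA polymerase I and of many genes for ribosome assembly factors. In the nucleolus the precursor rRNA is cleaved, modified under the guidance of small nucleolar RNAs (snoRNAs) and packed with proteins into the small and the large ribosomal subunit. Myc is also a textbook target of canonical Wnt signalling through beta-catenin.

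The arrays had medians between 5.80 and 5.94. Wnt1 stood at 12.02, 11.20 and 12.04 in metastatic tumours and at 12.40, 11.85 and 11.80 in non-metastatic tumours, against 5.61, 5.45 and 5.71 in normal glands. Normal gland 2 had a skeletal muscle marker score of 3.02, against -0.64 and -0.33 in normal glands 1 and 3. Scores here average a list's genes after each gene has been centred on its own mean across the 9 arrays. The normal glands carried the signal of fat: 11 of 11 adipocyte markers fell in tumours, with scores of -1.80 to -1.37 in metastatic and -2.08 to -0.63 in non-metastatic tumours, against 2.49 to 3.48 in normal glands. Of 13 epithelial markers, 7 rose in tumours and none fell, with scores of 0.13 to 0.71 in metastatic and 0.19 to 0.51 in non-metastatic tumours, against -1.45 to -0.25 in normal glands. All 8 endothelial, all 9 fibroblast and all 10 leukocyte markers had changes below 0 in tumours, and 4, 2 and 3 of them fell. Endothelial scores were -0.50 to 0.28 in metastatic and -0.95 to 0.02 in non-metastatic tumours, against 0.53 to 0.95 in normal glands. Fibroblast scores were -1.20 to 0.09 in metastatic and -2.21 to 0.66 in non-metastatic tumours, against 0.92 to 1.12 in normal glands, and leukocyte scores -0.30 to -0.09 and -0.56 to 0.04, against 0.31 to 0.63. Krt18, a keratin of luminal epithelium, was at 11.08, 11.03 and 11.45 in metastatic and 11.12, 11.74 and 10.92 in non-metastatic tumours, against 10.51, 8.91 and 10.45 in normal glands, lowest in the gland with muscle signal. In such bulk tissue, fewer cells of a type and less RNA per cell cannot be told apart.

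Of the 39 measured genes, 24 rose in the 6 tumours relative to normal gland and none fell, at a limma adjusted p under 0.05. That is 61.5%, while 13.6% of all genes tested rose and 9.13% fell at the same threshold. The median change was 0.62 over the 39 genes and 0.04 over all genes tested. All 6 tumours lay above all 3 normal glands for 23 of the 39, against 15.7% of all genes tested. Each tumour group was also set against the same 3 normal glands. In metastatic tumours 13 of the 39 rose (background 7.35%) with a median change of 0.51, and in non-metastatic tumours 25 rose (background 11.2%) with a median change of 0.73. The metastatic count moved with single arrays. It was 2 when metastatic tumour 1, metastatic tumour 3 or normal gland 1 was left out. It was 4 without normal gland 2, 8 without metastatic tumour 2 and 22 without normal gland 3. Calls over all genes tested moved as well, and 1284 rose with all 9 arrays. Without metastatic tumour 1, metastatic tumour 3 and normal gland 1, 225, 261 and 354 of all genes tested rose. Without normal gland 2 and metastatic tumour 2, 356 and 489 rose. The number without normal gland 3 is not given. The median change of the 39 genes stayed between 0.42 and 0.61 when any array was left out.

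**Figure D1:**
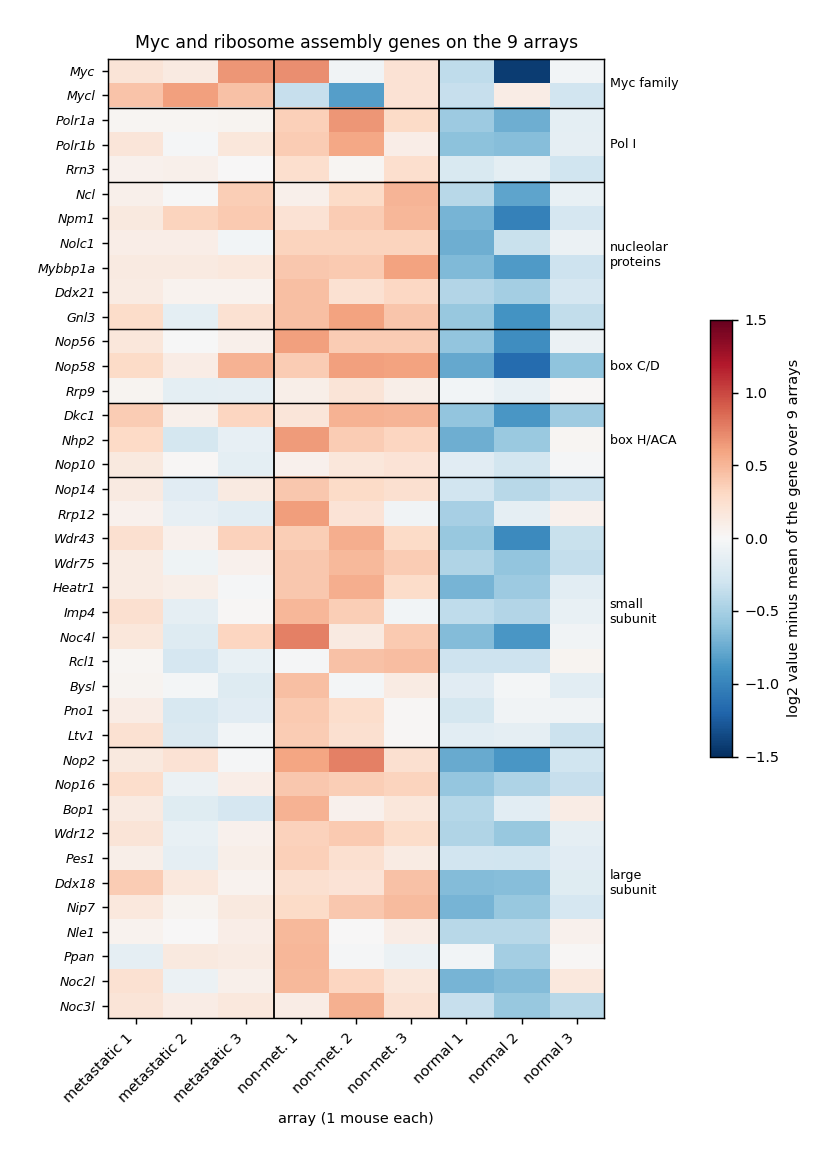
Log2 value of each of the 39 measured genes (rows, grouped by role) on each of the 9 arrays (columns, 1 mouse each), centred on the gene's own mean; red is above and blue below that mean. The 3 normal glands are mostly blue, normal gland 3 least so, and the 3 non-metastatic tumours are the most evenly red.

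The arrays within a group were not alike. Normal gland 3 was the highest of the normal glands for 33 of the 39 genes. Normal gland 2 was the lowest of all 9 arrays for 23 genes and normal gland 1 for 11. The highest of the 9 arrays was non-metastatic tumour 1 for 17 genes, non-metastatic tumour 2 for 13 and non-metastatic tumour 3 for 8. Metastatic tumour 2 was the lowest of the 6 tumours for 24 genes. The mean score over all 39 genes was 0.16, 0.00 and 0.10 in metastatic tumours and 0.37, 0.30 and 0.27 in non-metastatic tumours, against -0.47, -0.55 and -0.17 in normal glands.

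Myc itself had higher means in both tumour groups, but the difference did not pass the threshold. Its values were 10.52, 10.46 and 10.99 in metastatic tumours and 11.02, 10.28 and 10.54 in non-metastatic tumours, against 9.95, 8.90 and 10.29 in normal glands. The metastatic tumours all lay above the normal glands, while non-metastatic tumour 2 lay just below normal gland 3. The change was 0.92 for all tumours (SE 0.31, adjusted p = 0.066), 0.95 for metastatic tumours (SE 0.36, adjusted p = 0.12) and 0.90 for non-metastatic tumours (SE 0.36, adjusted p = 0.12). Myc averaged 10.66 ± 0.29 in metastatic and 10.61 ± 0.37 in non-metastatic tumours, against 9.71 ± 0.73 in normal glands (SD, n = 3 each). The result rested on single normal glands: the change for all tumours was 0.52 without normal gland 2 (adjusted p = 0.19) and 1.21 without normal gland 3, where it passed (adjusted p = 0.033). Without normal gland 2 it was 0.54 in metastatic and 0.49 in non-metastatic tumours.

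Mycl, which encodes L-Myc, a Myc family member known mainly from lung cancer and dendritic cells, had low values on every array. It stood at 6.43, 6.62 and 6.44 in metastatic tumours, 5.66, 5.18 and 6.22 in non-metastatic tumours and 5.66, 6.11 and 5.72 in normal glands. The metastatic tumours were above every other array, and the range of the non-metastatic tumours enclosed the normal glands. The change against normal gland was 0.67 in metastatic tumours (SE 0.25, adjusted p = 0.11) and -0.15 in non-metastatic tumours (SE 0.25, adjusted p = 0.73).

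**Figure D2:**
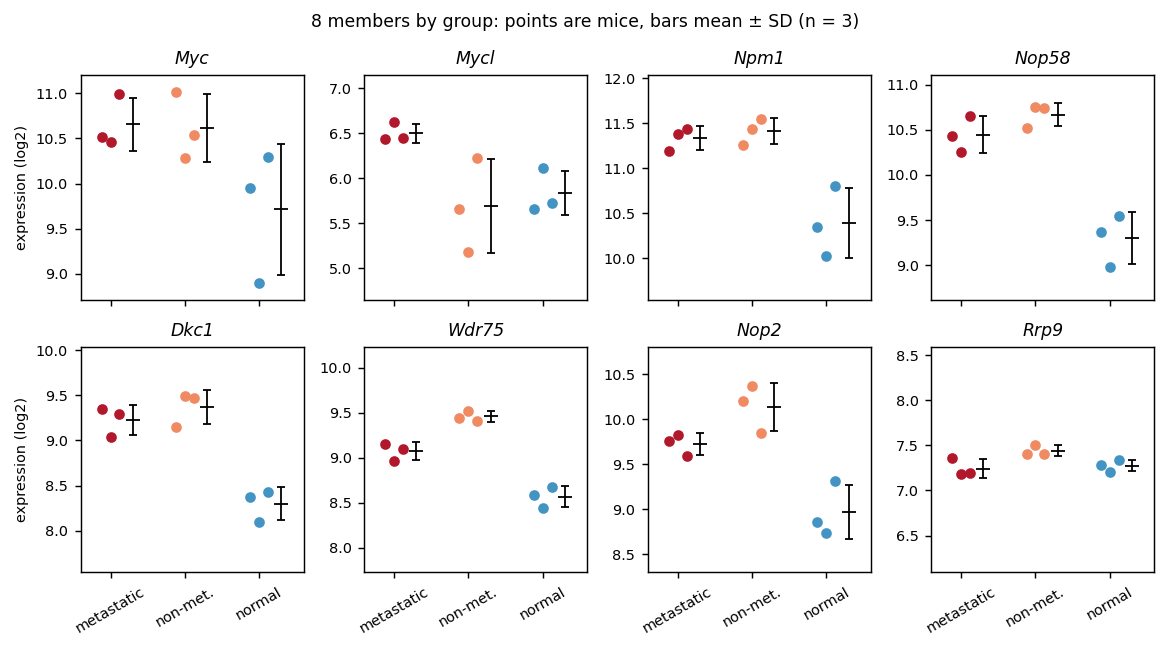
Log2 expression of 8 of the genes, in separate panels with their own offset but the same span; points are single mice, and bars are the mean ± SD of 3 mice. Tumours and normal glands are apart in Npm1, Nop58, Dkc1, Wdr75 and Nop2, overlap in Myc and Rrp9, and in Mycl the metastatic tumours alone lie above the rest.

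Among 20 genes that act with or against Myc, listed by name, 4 rose and 2 fell in the 6 tumours. These shares lie near those of all genes tested, of which 13.6% rose and 9.13% fell, so the count says nothing particular about the list, and the genes are given singly. Cip2a, an inhibitor of the phosphatase that marks Myc for degradation, had 9.15, 8.36 and 8.60 in metastatic and 8.49, 9.07 and 8.84 in non-metastatic tumours, against 6.83, 6.24 and 7.42 in normal glands (change 1.92, SE 0.28, adjusted p = 0.0044). Aurka, a mitotic kinase that also stabilises Myc proteins, rose by 1.06 (SE 0.25, adjusted p = 0.020). The other risers were Fbxw7 at 0.61, the ubiquitin ligase subunit that targets Myc, and Mga at 0.53, a Max partner that represses transcription. Mlxipl (ChREBP, a glucose-responsive lipogenic factor strong in fat and liver) had 6.69, 6.59 and 7.01 in metastatic and 7.01, 6.52 and 6.82 in non-metastatic tumours, against 10.32, 10.51 and 10.13 in normal glands (change -3.55, SE 0.15, adjusted p = 2.6e-05). The kinase Pim1 fell by 0.69 (SE 0.19, adjusted p = 0.032). Max, the obligate partner of Myc, differed by 0.16 (SE 0.10, adjusted p = 0.31), and Mycn by 0.69 (SE 0.35, adjusted p = 0.19). This count of 6 was 2 without normal gland 1 and 3 without normal gland 2. Calls over all genes tested went from 3980 to 1991 and 1898 in the same fits. Fbxw7 and Mga lie outside the naming rule and were named after their values were seen.

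The promoters of these genes were searched for CACGTG, the core E-box that Myc and Max bind, because the genes were grouped as Myc-linked by name alone. RefSeq promoters on GRCm38.p6, from 250 bases before to 50 after the annotated start, were given for 37 of the 42 genes; Myc, Npm1, Fbl, Rrp12 and Bop1 had no entry. The motif reads the same on both strands. It lay in 10 of 37 promoters (27.0%), in 2187 of 27025 promoters of all genes (8.09%) and in 1421 of 13499 promoters of the genes tested (10.5%). Among the other lists of the pathway it lay in 10 of 40 promoters of other small subunit factors, 8 of 44 of other large subunit factors (18.2%) and 0 of 9 of other RNA polymerase I machinery. There were 11 sites, 4 before the start (2 in Rrn3 and 1 each in Imp4 and Nop2) and 7 after it. The 250 bases before the start are printed for Rrn3, the only one with 2 sites, and for Nop2, which had the largest change in tumours of the genes with the motif. Capitals mark the motif, and all sequences run 5' to 3' along the gene's strand.
Rrn3 (chr16:13780449-13780698, plus strand): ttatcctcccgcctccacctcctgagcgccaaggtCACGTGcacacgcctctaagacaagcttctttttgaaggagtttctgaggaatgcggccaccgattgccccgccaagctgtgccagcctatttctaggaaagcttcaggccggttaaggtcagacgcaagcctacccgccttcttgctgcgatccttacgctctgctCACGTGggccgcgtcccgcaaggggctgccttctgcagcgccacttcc
Nop2 (chr6:125131633-125131882, plus strand): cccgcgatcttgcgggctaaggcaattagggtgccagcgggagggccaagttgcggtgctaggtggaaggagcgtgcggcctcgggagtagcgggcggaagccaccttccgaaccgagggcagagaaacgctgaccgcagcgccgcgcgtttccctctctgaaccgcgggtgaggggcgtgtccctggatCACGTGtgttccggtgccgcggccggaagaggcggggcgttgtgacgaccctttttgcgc
Counted from the start as position 1, the Rrn3 motifs begin at -215 and -48 and the Nop2 motif at -60. The other measured genes with a site are shown by a window of at most 30 bases around it, cut short where the promoter entry ends, so that the flanks can be compared.
Mybbp1a (chr11:72441355-72441376, plus strand): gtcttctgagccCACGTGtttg
Wdr43 (chr17:71616220-71616249, plus strand): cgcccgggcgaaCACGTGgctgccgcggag
Imp4 (chr1:34439696-34439725, plus strand): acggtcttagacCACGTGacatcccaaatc
Pno1 (chr11:17211540-17211564, minus strand): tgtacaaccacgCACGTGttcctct
Ltv1 (chr10:13193092-13193121, minus strand): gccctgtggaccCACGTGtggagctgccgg
Pes1 (chr11:3963965-3963994, plus strand): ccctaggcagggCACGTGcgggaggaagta
Nle1 (chr11:82908355-82908384, minus strand): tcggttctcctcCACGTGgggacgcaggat
These motifs begin at position 41 in Mybbp1a, 18 in Wdr43, -121 in Imp4, 38 in Pno1, 29 in Ltv1, 3 in Pes1 and 24 in Nle1, and the unmeasured Tsr1 has one at 25. Of the 9 measured genes with the motif, 5 rose in tumours with a median change of 0.38, and of the 26 measured genes with a promoter entry and no motif, 18 rose with a median change of 0.66. A motif match describes the sequence only and is no evidence that Myc binds there.

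Transcription of the rRNA genes starts with RNA polymerase I, and all 3 measured genes of its machinery rose in tumours. Polr1a, the largest subunit, had 9.00, 9.00 and 9.01 in metastatic and 9.33, 9.63 and 9.26 in non-metastatic tumours, against 8.42, 8.24 and 8.82 in normal glands (change 0.71, SE 0.14, adjusted p = 0.012). Polr1b, the other large catalytic subunit, had 7.90, 7.71 and 7.89 in metastatic and 8.10, 8.30 and 7.82 in non-metastatic tumours, against 7.11, 7.09 and 7.59 in normal glands (change 0.69, SE 0.15, adjusted p = 0.016). Rrn3, the initiation factor that brings the polymerase to the rRNA promoter and whose own promoter holds both E-boxes above, had 9.27, 9.28 and 9.21 in metastatic and 9.46, 9.24 and 9.46 in non-metastatic tumours, against 8.98, 9.06 and 8.91 in normal glands (change 0.34, SE 0.09, adjusted p = 0.026). Every tumour lay above every normal gland in each of the 3 genes. None of them passed the threshold in metastatic tumours alone, where the changes were 0.51, 0.57 and 0.27.

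The 6 nucleolar proteins with several roles all rose in tumours, and their tumour and normal values did not overlap. Npm1 (nucleophosmin, a chaperone of histones and ribosomal proteins) had 11.19, 11.38 and 11.44 in metastatic and 11.26, 11.43 and 11.55 in non-metastatic tumours, against 10.35, 10.03 and 10.80 in normal glands (change 0.98, SE 0.17, adjusted p = 0.0070). Mybbp1a, a Myb-binding protein of the nucleolus, had 10.12, 10.12 and 10.14 in metastatic and 10.39, 10.37 and 10.58 in non-metastatic tumours, against 9.32, 9.13 and 9.67 in normal glands (change 0.92, SE 0.12, adjusted p = 0.0036). Mybbp1a thus formed 3 separate levels, with the non-metastatic tumours highest. Gnl3 (nucleostemin, a GTP-binding protein of proliferating cells) had 9.88, 9.46 and 9.83 in metastatic and 10.05, 10.20 and 10.02 in non-metastatic tumours, against 9.03, 8.71 and 9.23 in normal glands (change 0.91, SE 0.14, adjusted p = 0.0056). Ncl (nucleolin, which binds rRNA genes and their precursor transcript) had 11.01, 10.92 and 11.30 in metastatic and 11.01, 11.22 and 11.44 in non-metastatic tumours, against 10.52, 10.14 and 10.82 in normal glands (change 0.66, SE 0.17, adjusted p = 0.028). In Ncl the gap was narrow, since metastatic tumour 2 was 10.92 and normal gland 3 was 10.82. Nolc1, a chaperone of snoRNA-protein particles, had 8.70, 8.71 and 8.56 in metastatic tumours and 8.94 in each non-metastatic tumour, against 7.87, 8.27 and 8.52 in normal glands (change 0.58, SE 0.14, adjusted p = 0.020). The helicase Ddx21 rose by 0.60 (SE 0.09, adjusted p = 0.0053).

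Box C/D particles place methyl groups on rRNA, and 2 of their 3 measured proteins rose. Nop58, a core protein, had the largest change of the 39 genes in tumours, with 10.43, 10.25 and 10.66 in metastatic and 10.52, 10.75 and 10.74 in non-metastatic tumours, against 9.37, 8.98 and 9.54 in normal glands (change 1.26, 2.40-fold, SE 0.15, adjusted p = 0.0023). Its partner Nop56 had 9.58, 9.40 and 9.49 in metastatic and 10.03, 9.79 and 9.79 in non-metastatic tumours, against 8.82, 8.48 and 9.32 in normal glands (change 0.81, SE 0.17, adjusted p = 0.015). The other probe sets that carry Nop56 alone, both of lower signal, differed from each other. In 1 of them the tumours, at 6.89, 6.92 and 6.83 in metastatic and 6.95, 7.14 and 7.06 in non-metastatic tumours, all lay above the normal glands, at 6.69, 5.40 and 6.65. The other had 8.49, 8.06 and 8.15 in metastatic and 8.55, 10.08 and 8.47 in non-metastatic tumours, against 9.11, 8.55 and 10.05 in normal glands. A probe set of higher signal, shared with Snord57, had all tumours above all normal glands. Its lowest tumour value was 11.663, in non-metastatic tumour 3, and its highest normal value 11.495, in normal gland 3. With the mean of the probe sets that carry it alone, Nop56 did not pass: the change was 0.31 in all tumours (adjusted p = 0.41), 0.09 in metastatic and 0.54 in non-metastatic tumours (adjusted p = 0.23). Rrp9, a protein of the particle that guides early cleavage of the rRNA precursor, had the smallest change of the 39 genes: 7.36, 7.18 and 7.19 in metastatic and 7.41, 7.51 and 7.41 in non-metastatic tumours, against 7.28, 7.21 and 7.34 in normal glands (change 0.07, SE 0.08, adjusted p = 0.61).

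Box H/ACA particles convert uridines of rRNA to pseudouridine, and 1 of their 3 measured proteins rose. Dkc1 (dyskerin, the pseudouridine synthase, X-linked) had 9.35, 9.04 and 9.29 in metastatic and 9.15, 9.49 and 9.47 in non-metastatic tumours, against 8.37, 8.09 and 8.43 in normal glands (change 1.00, SE 0.13, adjusted p = 0.0030). Its core partner Nhp2 had 8.95, 8.39 and 8.53 in metastatic and 9.30, 9.04 and 8.98 in non-metastatic tumours, against 7.93, 8.10 and 8.69 in normal glands (change 0.62, SE 0.20, adjusted p = 0.053). Normal gland 3 overlapped the metastatic tumours in Nhp2, and the gene passed the threshold in non-metastatic tumours (change 0.86, SE 0.23, adjusted p = 0.034). Nop10, the smallest core protein, had 11.61, 11.48 and 11.32 in metastatic and 11.53, 11.64 and 11.67 in non-metastatic tumours, against 11.30, 11.19 and 11.45 in normal glands (change 0.23, SE 0.10, adjusted p = 0.14).

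**Figure D3:**
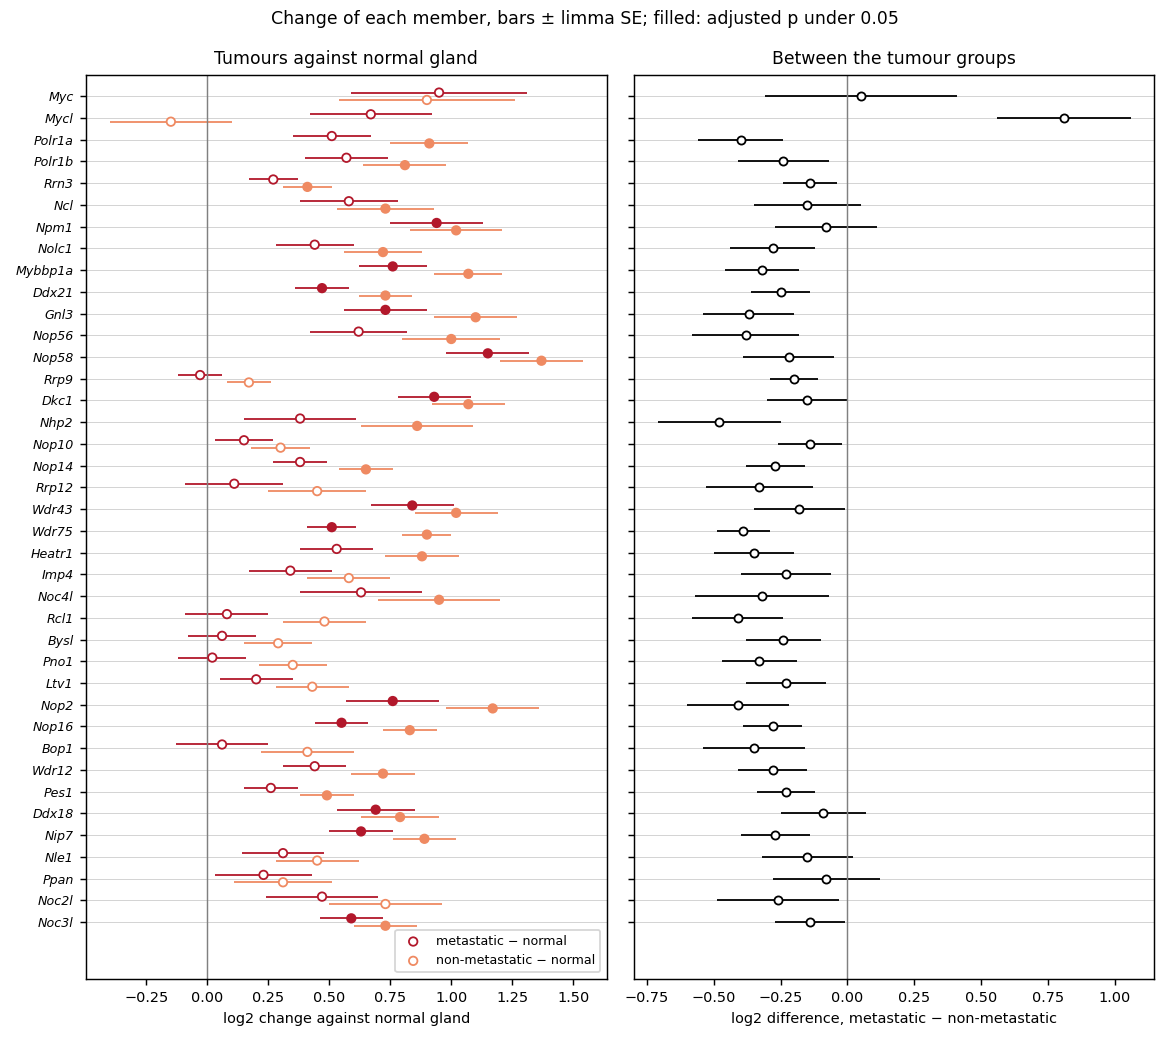
Log2 change of each of the 39 genes with limma's SE as bars: left, metastatic (dark) and non-metastatic (light) tumours against normal gland; right, metastatic minus non-metastatic tumours. Filled points have an adjusted p under 0.05: 13 and 25 genes on the left, and none on the right, where every gene but Myc and Mycl lies below 0.

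Small subunit assembly begins while the rRNA is still being transcribed, and 5 of 11 measured factors rose in tumours. Among them were the 3 genes of this set whose products belong to the complex that first binds the nascent transcript. Wdr43 had 10.46, 10.29 and 10.56 in metastatic and 10.59, 10.76 and 10.51 in non-metastatic tumours, against 9.65, 9.27 and 9.89 in normal glands (change 0.93, SE 0.14, adjusted p = 0.0054). Heatr1 had 8.66, 8.63 and 8.52 in metastatic and 8.94, 9.09 and 8.81 in non-metastatic tumours, against 7.84, 7.99 and 8.38 in normal glands (change 0.71, SE 0.13, adjusted p = 0.0091). Wdr75 had 9.15, 8.96 and 9.10 in metastatic and 9.44, 9.52 and 9.41 in non-metastatic tumours, against 8.58, 8.44 and 8.67 in normal glands (change 0.70, SE 0.09, adjusted p = 0.0029). The 3 groups did not overlap in Wdr75 or Heatr1, and in both the non-metastatic tumours were highest. Noc4l had 8.14, 7.78 and 8.29 in metastatic and 8.72, 8.10 and 8.36 in non-metastatic tumours, against 7.32, 7.09 and 7.92 in normal glands (change 0.79, SE 0.22, adjusted p = 0.035), and its complex partner Nop14 rose by 0.52 (SE 0.10, adjusted p = 0.0097). Noc4l was the only riser whose groups overlapped, through metastatic tumour 2.

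The other 6 small subunit factors did not pass. Bysl, a factor of the late small subunit precursor, had 7.43, 7.35 and 7.19 in metastatic and 7.83, 7.35 and 7.51 in non-metastatic tumours, against 7.22, 7.35 and 7.23 in normal glands (change 0.18, SE 0.12, adjusted p = 0.33). Pno1 and Ltv1, which ride on the late precursor, changed by 0.19 (adjusted p = 0.30) and 0.31 (adjusted p = 0.11). Rrp12, needed for export of precursors from the nucleus, changed by 0.28 (adjusted p = 0.29), Rcl1, which acts in precursor cleavage, by 0.28 (adjusted p = 0.20), and the earlier factor Imp4 by 0.46 (adjusted p = 0.061).

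For the large subunit, 7 of 11 measured factors rose. Nop2, a methyltransferase of the large subunit rRNA, had 9.76, 9.83 and 9.59 in metastatic and 10.20, 10.37 and 9.85 in non-metastatic tumours, against 8.86, 8.74 and 9.31 in normal glands (change 0.96, SE 0.16, adjusted p = 0.0067). Nip7, which acts in rRNA processing, had 8.46, 8.35 and 8.45 in metastatic and 8.59, 8.71 and 8.78 in non-metastatic tumours, against 7.61, 7.74 and 8.05 in normal glands (change 0.76, SE 0.11, adjusted p = 0.0045). The helicase Ddx18 had 9.60, 9.37 and 9.27 in metastatic and 9.45, 9.42 and 9.65 in non-metastatic tumours, against 8.56, 8.57 and 9.03 in normal glands (change 0.74, SE 0.14, adjusted p = 0.0092). All tumours were above all normal glands in these 3 genes, and in Ddx18 the tumour groups were intermingled. Nop16 had 8.14, 7.79 and 7.98 in metastatic and 8.28, 8.25 and 8.21 in non-metastatic tumours, against 7.30, 7.42 and 7.53 in normal glands (change 0.69, SE 0.10, adjusted p = 0.0042). Noc3l rose by 0.66 (SE 0.11, adjusted p = 0.0067).

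Bop1, Pes1 and Wdr12 form a complex needed for maturation of the large subunit rRNA, and its 3 genes did not give the same call. Wdr12 rose by 0.58 (SE 0.12, adjusted p = 0.012) and Pes1 by 0.37 (SE 0.09, adjusted p = 0.024). Bop1 had 8.62, 8.30 and 8.23 in metastatic and 9.01, 8.55 and 8.66 in non-metastatic tumours, against 8.06, 8.33 and 8.60 in normal glands (change 0.23, SE 0.16, adjusted p = 0.34). Bop1 overlapped between all 3 groups. The remaining large subunit factors, Noc2l, Nle1 and Ppan, changed by 0.60 (adjusted p = 0.064), 0.38 (adjusted p = 0.10) and 0.27 (adjusted p = 0.30). The probe sets of Ppan differed: the one of lower signal had 8.02, 7.82 and 7.86 in metastatic and 8.27, 8.22 and 8.07 in non-metastatic tumours, against 7.24, 7.15 and 7.71 in normal glands, without overlap. The further probe sets of Npm1, Ddx18 and Ddx21 also had all tumours above all normal glands.

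Of the 24 genes that rose in tumours, 15 passed the threshold whichever of the 9 arrays was left out, namely Npm1, Mybbp1a, Ddx21, Gnl3, Nop58, Dkc1, Nop14, Wdr43, Wdr75, Heatr1, Nop2, Nop16, Ddx18, Nip7 and Noc3l. Without normal gland 1 the count was 15 and without normal gland 2 it was 18. Over all genes tested 1129 and 1019 rose in these fits, against 2385 with all 9 arrays. With median centring of the arrays 29 of the 39 rose, as did 18.8% of all genes tested, and 71.6% of all calls were then higher, against 59.9% with the values as deposited.

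Some snoRNAs are cut from introns of genes for ribosome and nucleolar proteins, and 7 of the 39 genes (17.9%) hold a RefSeq snoRNA gene within their bounds, against 296 of 15605 protein-coding genes tested (1.90%). They hold 20 snoRNA genes, of which 9 had a probe set of their own that passed the filter. In tumours 7 of the 9 rose and none fell, while 25 of all 77 snoRNA genes tested rose (32.5%) and 3 fell. Snora75, inside Ncl, had 9.45, 8.83 and 9.51 in metastatic and 9.49, 11.21 and 10.06 in non-metastatic tumours, against 7.74, 7.47 and 8.16 in normal glands (change 1.97, SE 0.36, adjusted p = 0.0090). Snord11, inside Nop58, had 10.04, 9.78 and 9.59 in metastatic and 10.13, 10.09 and 9.85 in non-metastatic tumours, against 8.40, 7.81 and 9.36 in normal glands (change 1.39, SE 0.30, adjusted p = 0.015). Snord19, inside Gnl3, had 7.35, 7.22 and 7.06 in metastatic and 7.54, 7.49 and 7.51 in non-metastatic tumours, against 6.20, 5.76 and 6.65 in normal glands (change 1.16, SE 0.18, adjusted p = 0.0052). All tumours were above all normal glands in these 3 snoRNAs, and also in Snord69, Snord92 and Snord110. The other risers were Snord69 in Gnl3 (0.96), Snord70 in Nop58 (0.84), Snord92 in Wdr43 (0.81) and Snord110 in Nop56 (0.49).

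Neighbours within 1 gene could differ: Ncl holds Snora75 and also Snord82, which changed by 0.22 (SE 0.13, adjusted p = 0.24), and Wdr43 holds Snord92 and also Snord53, at 0.52 (SE 0.18, adjusted p = 0.077). The difference between such neighbours was not tested. The snoRNA count of 7 was 2 without normal gland 1, 4 without normal gland 2, 3 without metastatic tumour 1 and 4 without metastatic tumour 3. Without normal gland 1 or 2, 1129 and 1019 of all genes tested rose, against 2385 with all arrays. No such number is given for the fits without metastatic tumour 1 or 3, so those snoRNA counts cannot be set against it. Whether these probe sets read the mature snoRNA or the intron it is cut from was not stated.

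**Figure D4:**
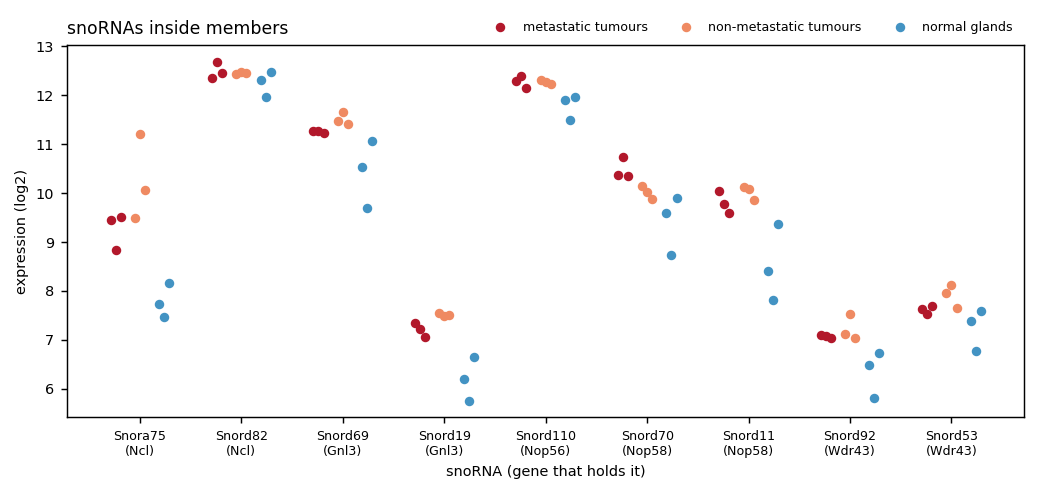
Log2 expression of the 9 measured snoRNAs that lie inside the genes, with the holding gene in brackets; each point is 1 mouse, coloured by group. In Snora75, Snord19, Snord11, Snord69, Snord92 and Snord110 all 6 tumours are above the 3 normal glands. The gaps are narrow in Snord69 (11.22 in metastatic tumour 3, 11.06 in normal gland 3) and Snord110 (12.14 and 11.97 in the same arrays). In Snord70, Snord53 and Snord82 tumours and normal glands overlap.

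Among further genes of the pathway, listed by name and apart from the 42, every call was upward. Of 12 other genes of the RNA polymerase I machinery 8 rose and none fell, with Cd3eap (a polymerase subunit, now Polr1g) at 0.66 and Polr1e, another subunit, at 0.60. Of 49 other small subunit factors 32 rose and none fell, led by Esf1 at 1.00 (SE 0.12, adjusted p = 0.0025) and Dimt1, an rRNA dimethyltransferase, at 0.87. Of 52 other large subunit factors 37 rose and none fell, led by Rpf2, which brings the 5S particle to the precursor, at 1.09 (SE 0.15, adjusted p = 0.0036) and Nol10 at 0.90. Together 77 of these 113 genes rose (68.1%, against 13.6% of all genes tested). The count was 41 without normal gland 1 and 39 without normal gland 2. Over all genes tested 2385 rose with all arrays, and 1129 and 1019 in the same fits. By list, leaving out normal gland 1 and then normal gland 2 gave 4 and 3 for the polymerase, 17 and 18 for the small subunit and 20 and 18 for the large subunit.

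Of 61 measured genes for cytosolic ribosomal proteins, the parts of the ribosome itself, 29 rose (47.5%) and 1 fell. Of all genes tested 13.6% rose and 9.13% fell. The median change of the 61 genes was 0.42. Rps13 had 10.18, 9.96 and 10.21 in metastatic and 9.97, 10.10 and 10.16 in non-metastatic tumours, against 9.12, 8.77 and 9.46 in normal glands (change 0.98, SE 0.15, adjusted p = 0.0053), and Rpl9 rose by 0.94. The 1 that fell was Rpl22l1, a paralogue of Rpl22, named after its value was seen, at -0.80 (SE 0.19, adjusted p = 0.022). Ribosomal protein genes have many processed pseudogenes, so their probe sets may share signal. The count of 30 was 7 without normal gland 1, 10 without normal gland 2, 19 without non-metastatic tumour 2, 17 without metastatic tumour 1 and 16 without metastatic tumour 3. Calls over all genes tested went from 3980 to 1991 without normal gland 1 and 1898 without normal gland 2. No such number is given for the 3 fits without a tumour, so those counts cannot be set against it. Median centring gave 47 higher and 1 lower among the 61, and 18.8% of all genes tested higher.

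Of 43 known Myc targets outside ribosome assembly, 20 rose (46.5%) and 1 fell, against 13.6% and 9.13% of all genes tested. Slc7a5, an importer of large neutral amino acids, had 10.89, 11.09 and 11.35 in metastatic and 11.72, 11.63 and 11.10 in non-metastatic tumours, against 9.76, 8.47 and 10.33 in normal glands (change 1.78, SE 0.37, adjusted p = 0.014). Rrm2, a ribonucleotide reductase subunit, rose by 1.32 and Eef1e1, a protein of the tRNA synthetase complex, by 1.14. Fasn (fatty acid synthase) fell by 2.62 (SE 0.25, adjusted p = 0.0011). Fasn and Mlxipl fell in the same arrays as the 11 adipocyte markers, and the part of fat cells in that was not tested. The count of 21 was 13 without normal gland 2, where calls over all genes tested went from 3980 to 1898.

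**Figure D5:**
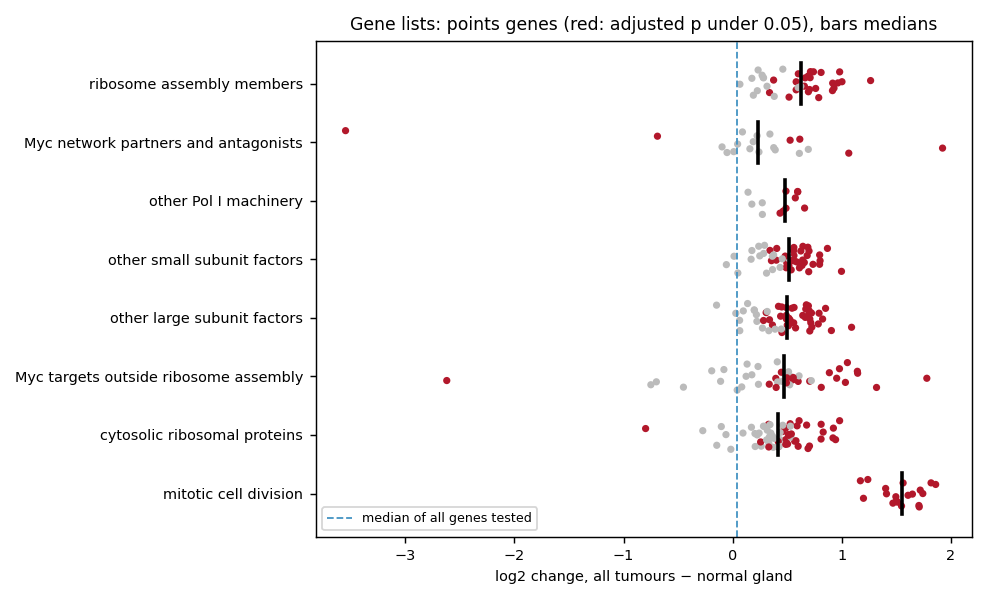
Log2 change of all tumours against normal gland for the genes of each list; points are genes, red with an adjusted p under 0.05, black bars are list medians and the dashed line is the median of all genes tested, 0.04. The medians of the ribosome lists lie between 0.42 and 0.62, with single genes from -0.80 (Rpl22l1) to 1.26 (Nop58). The median of the mitotic genes lies further right, at 1.55.

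Markers of dividing cells were also higher in tumours. All 19 mitotic genes rose in tumours, with a median change of 1.55, against 0.62 for the 39 genes, and a range of 1.17 to 1.86. The mitotic score was 0.86, -0.04 and 0.45 in metastatic and 0.47, 0.46 and 0.88 in non-metastatic tumours, against -1.17, -1.54 and -0.38 in normal glands. Metastatic tumour 2 was the lowest tumour and normal gland 3 the highest normal gland by this score, as they were for most of the 39 genes. The other tumours were not in the same order. Metastatic tumour 1 had a higher mitotic score than non-metastatic tumours 1 and 2. Its score over the 39 genes, 0.16, was below those of the non-metastatic tumours, 0.37, 0.30 and 0.27. The mitotic count was 9 without normal gland 1 and 10 without normal gland 2. Over all genes tested 2385 rose with all arrays, and 1129 and 1019 in the same fits. Epithelial markers were higher, and adipocyte, endothelial, fibroblast and leukocyte markers lower, in the same tumours, with the counts and scores given above. The part of cell division and of tissue makeup in the changes of these genes was not tested.

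Between metastatic and non-metastatic tumours none of the 39 genes passed the threshold (limma, background 0.00572%, 1 gene of 17478). An unadjusted limma p under 0.05 was found for 9 of them and for 886 of the 17478 genes tested. Of the 9, 8 were assembly genes, lower in metastatic tumours, and 1 was Mycl, which was higher. The differences of the 37 ribosome assembly genes were all below 0, from -0.48 to -0.08, as were those of 54.3% of all genes tested. In 16 of the 39 all 3 metastatic tumours lay below all 3 non-metastatic tumours, against 5.84% of all genes tested. The median difference was -0.25 over the 39 genes and -0.02 over all genes tested. Wdr75, whose values are given above, had the smallest p, with a difference of -0.39 (SE 0.10, limma adjusted p = 0.88). Nhp2 had the largest difference downward, -0.48 (SE 0.23, adjusted p = 0.88). Myc differed by 0.05 (SE 0.36, adjusted p = 0.99). Mycl stood at the other end, higher in metastatic tumours by 0.81 (SE 0.25, limma adjusted p = 0.88). The 2 groups did not overlap in Mycl, as held in that direction for 4.41% of all genes tested.

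Of the 113 other ribosome assembly genes, 104 had a difference below 0, with a median of -0.20, and none passed the threshold. The count of 0 held when any of the 9 arrays was left out, and the median difference of the 39 genes then lay between -0.30 and -0.18. It was -0.18 without metastatic tumour 2, which also had the lowest mitotic score of the tumours, -0.04, against 0.45 to 0.88 in the others. Of the 19 mitotic genes, 18 had a difference below 0, with a median of -0.13. All 12 skeletal muscle markers had a difference below 0 (median -0.93), with scores of -0.94, -0.65 and -0.86 in metastatic and 0.34, -1.02 and 1.09 in non-metastatic tumours. The difference was above 0 for 7 of 8 endothelial markers (median 0.37) and 7 of 9 fibroblast markers (median 0.28), and none of these markers passed the threshold. The part of cell division and of tissue makeup in the difference between the tumour groups was not tested. Genes of 1 pathway vary together between mice, so 37 differences of like sign over 3 mice and 3 mice are not 37 separate observations.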

How the data were processed

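The deposited table holds 41345 probe sets on 9 arrays as log2 values. Per the submitters' processing notes the authors made these log2 values with RMA, a method of background correction, quantile normalization and probe summary. Its version and the build are not given in the sources used here. Precision is limited by the number of arrays.

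A gene was taken from probe sets with 1 symbol (23521 probe sets), using the one of highest mean. Genes were kept if 3 or more arrays showed them above the array's 30th percentile. The 3 group means were estimated jointly from the 9 arrays with limma 3.58.1 (R 4.3.3) and eBayes, two-sided, with Benjamini-Hochberg adjustment over 17478 genes. It was tested on simulated data. The change for all tumours is the mean of both tumour groups minus normal gland.

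The genes and lists were chosen with earlier results of these data known. Values per array are given for Myc and Mycl, for up to 4 genes of each role with the largest change in tumours and the one with the smallest, and for the 2 smallest p between tumour groups. Other lists give up to 4 risers or fallers each.

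Groups come from the sample titles, and replicates are separate mice. Replicate numbers do not pair mice: deviations of same-numbered arrays correlated between -0.281 and 0.171. Promoters and snoRNA positions are from RefSeq on GRCm38.p6, and Polr1f, Polr1g, Polr1h and Ctps1 were matched through older symbols. Alternatives were other filters, probe set means, quantile normalization, median centring, an intensity trend, robust eBayes, array weights, fewer groups in the fit, the replicate block, age as a covariate, other thresholds and each array left out.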

Additional observations from a re-analysis of the deposited data

How the results depend on the processing

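The count of members that rose in metastatic tumours against normal gland, 13 of 39, was 30 with array weights, 20 at an adjusted p under 0.1 and 7 with the replicate number as a block, and it ranged from 2 to 22 when each array was left out in turn. Calls over all genes moved too, from 2332 in the main fit to 627 without metastatic tumour 1 and at most 6498. The share of all genes under array weights, the 0.1 threshold or the block is not given. The 30, 20 and 7 can therefore not be set against it. Nop58 and Dkc1 alone passed in every one of the fits without 1 array. The count for all tumours, 24, ranged from 15 to 27 when each array was left out. That for non-metastatic tumours, 25, ranged from 17 to 28, with 16 genes passing each time. Over all genes tested 1959 rose in non-metastatic tumours with all arrays. Without normal gland 1, normal gland 2 and non-metastatic tumour 2, 733, 809 and 823 did. In all tumours 2385 rose, and 1129 and 1019 without normal gland 1 and normal gland 2. With the replicate block the member counts for all and for non-metastatic tumours were 23 and 23, again without a share of all genes. Between the tumour groups the member count was 0 with the block and with age at collection as a covariate. Small changes turned in sign, none of them past the threshold. For metastatic tumours against normal gland, Rrp9 became 0.03 with median centring, Rrp12 -0.05 without normal gland 1, Pno1 -0.05 with quantile normalization, -0.05 without normal gland 1 and -0.08 without metastatic tumour 1, and Bop1 -0.01, -0.08 and -0.06 under the same 3 settings. With 1 array left out these changes reached 0.24 for Rrp12, 0.09 for Pno1 and 0.19 for Bop1 at the other end. Mycl lay between -0.41 and 0.11 in non-metastatic tumours against normal gland with 1 array left out, the higher value being that without non-metastatic tumour 2. Between the tumour groups Myc became -0.12 without non-metastatic tumour 2 and -0.12 without metastatic tumour 3, and at most 0.25, while Ppan became 0.10 without non-metastatic tumour 1 and 0.01 without metastatic tumour 1, and at the least -0.19. For all tumours against normal gland no member changed sign under any alternative run. Over all genes, calls ranged from 627 to 6498 in metastatic tumours, 1345 to 5360 in non-metastatic tumours, 1898 to 7603 in all tumours and 0 to 40 between the tumour groups. The cause of these shifts was not tested. Fits that leave 1 array out also rest on fewer arrays, and the part of that was not tested either. Nop56 fell short of the threshold when the mean of its probe sets stood for it. With 3 mice per group, single arrays moved the metastatic count and the count for all tumours by more than 1.5 times.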
